A study of Homo sapiens with 10 samples.

Results

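The genes described here encode the chains of nonmuscle myosin II and 3 kinases that act on it. They are the heavy chains MYH9, MYH10 and MYH14, the essential light chain MYL6, the regulatory light chains MYL9, MYL12A and MYL12B, myosin light chain kinase (MYLK) and the kinases ROCK1 and ROCK2, which makes 10 of the 60448 genes in the count table. Members were found by Ensembl identifier. MYH10 was chosen by its very low counts in EA.hy926, so its difference between the lines is a description and carries no test.

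Poly(A) RNA was sequenced from confluent, untreated cultures of both human endothelial lines, 5 biological replicates of each. EA.hy926 was made by fusing umbilical vein endothelial cells with A549, a lung carcinoma line, and was grown in Advanced DMEM with 5% FBS. HMEC-1 was derived from dermal microvascular endothelium, carries the SV40 large T antigen, and was grown in MCDB 131 with 10% FBS, 10 ng/mL EGF and 1 µg/mL hydrocortisone. Line and medium therefore cannot be told apart, and each line stands for 1 immortalised cell population. EA.hy926 libraries held 34846046 to 39899324 counts and HMEC-1 libraries 33391640 to 43877224. Levels are given as CPM, counts scaled to library size, and 3 counts corresponded to 0.0651 to 0.0904 CPM depending on the library. Endothelial markers were present in both lines, with at least 10 counts in every library for 14 of 16 in EA.hy926 and 16 of 16 in HMEC-1. The endothelial markers EMCN and CLDN5 were near 0 in EA.hy926, at 0 to 2 and 0 to 5 counts.

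Nonmuscle myosin II is a hexamer of 2 heavy chains, 2 essential and 2 regulatory light chains that assembles into bipolar filaments and pulls on actin. The heavy chain genes give the isoforms IIA (MYH9), IIB (MYH10) and IIC (MYH14). Phosphorylation of the regulatory light chain by calmodulin-dependent MYLK or by ROCK1 and ROCK2 switches the motor on, and myosin phosphatase, which ROCK1 and ROCK2 inhibit, switches it off. In endothelium this system tensions stress fibres and cell junctions and is known for its part in barrier opening, shape change and migration.

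The activating phosphorylation falls on a neighbouring threonine and serine near the amino terminus. The coding sequence around both residues is shown for the 3 regulatory light chains, because their transcript levels differ between the lines. The reference codons of both residues are the same in the 3 genes, and the sequence of either line was not examined. The stretches come from GENCODE 44 transcripts (GRCh38, coding strand), and capitals mark the threonine and serine codons, which are codons 19 and 20 in MYL9 and MYL12B and codons 18 and 19 in MYL12A.
MYL9: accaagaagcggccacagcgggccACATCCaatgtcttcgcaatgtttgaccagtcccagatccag
MYL12A: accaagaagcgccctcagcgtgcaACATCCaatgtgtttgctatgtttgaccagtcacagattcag
MYL12B: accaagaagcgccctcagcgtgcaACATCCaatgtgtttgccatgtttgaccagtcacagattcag
Over these 66 bases, MYL12A and MYL12B differed at 1 base, and MYL9 differed from each of them at 9 bases. Over whole coding sequences, MYL12A and MYL12B were identical at 95.7% of bases and 98.2% of residues. MYL9 was identical to MYL12A at 79.3% of bases and 93.6% of residues. The longest run of identical coding bases was 77 between MYL12A and MYL12B and 26 between MYL9 and MYL12A, and no stretch of 100 bases was shared between annotated transcripts of these genes. The heavy chains were further apart, with 78.2% identical residues between MYH9 and MYH10 and 65.2% between MYH9 and MYH14.

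Mean CPM was lower in EA.hy926 than in HMEC-1 for every member except MYLK, and the differences ranged from under 1 log2 unit to a near absence. Of the 10 members, 9 passed the filter on low counts, and MYH14 did not. Leaving out MYH10, 7 of the 8 tested members were lower in EA.hy926 with an adjusted p-value below 0.05 (edgeR quasi-likelihood test, Benjamini-Hochberg over 16310 genes), against 43.3% of all genes tested. MYLK was higher, against 42.6% of all genes. With an absolute log2 fold change (log2FC, EA.hy926 over HMEC-1) above 1 required as well, MYL9 was lower, against 16.4% of all genes, and MYLK was higher, against 19.1%. The CPM ranges of the lines did not overlap for any of the 9 members other than MYH10, against 77.4% of all genes tested. These 9 include MYH14, which was not among the genes tested. MYL9 passed the filter through its counts in HMEC-1 alone and so had to differ, and both the 7 and the 9 include it. The members were chosen with earlier results of these data known, so these counts are descriptions.

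**Figure D1:**
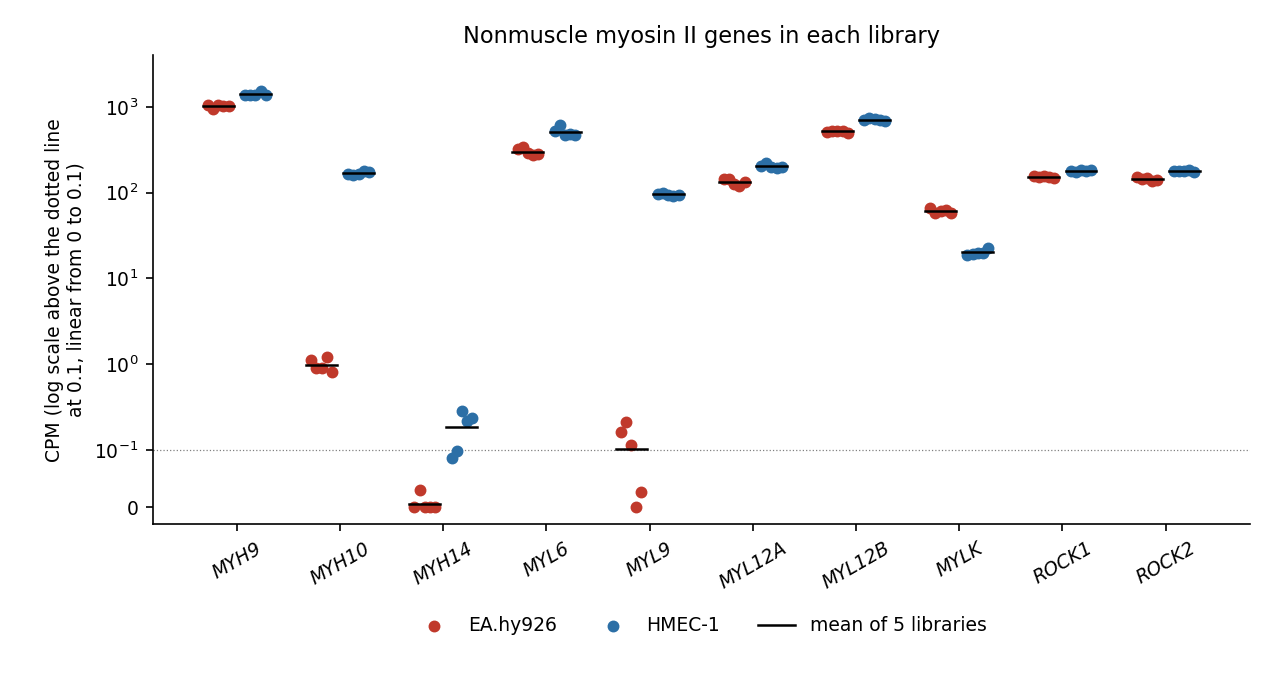
CPM of the 10 genes in each library, with 5 EA.hy926 points (red) and 5 HMEC-1 points (blue) per gene and a bar at the mean of the 5 libraries; the vertical axis is logarithmic above 0.1 CPM and linear below. MYH10 and MYL9 stood near 1 and 0.1 CPM in EA.hy926 and near 168 and 95.2 CPM in HMEC-1, while the other abundant genes kept within a smaller range.

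MYH9 (ENSG00000100345, chr22:36281280-36388010, minus strand), the IIA heavy chain, was the main heavy chain in both lines. Its counts in EA.hy926 replicates 1 to 5 were 38390, 31122, 36945, 39819 and 38313, and in HMEC-1 they were 48448, 56509, 63027, 62052 and 52151. On the CPM scale this was 1020 ± 46.4 in EA.hy926 and 1404 ± 66.8 in HMEC-1 (SD, n = 5 each). Every EA.hy926 library lay below every HMEC-1 library, and MYH9 was lower by a log2FC of -0.46 (SE 0.034, adjusted p = 3.1e-11).

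MYH10 (ENSG00000133026, chr17:8474207-8631376, minus strand), the IIB heavy chain, was nearly absent from EA.hy926. Its counts were 41, 30, 32, 47 and 30 in the EA.hy926 libraries and 5838, 6503, 7582, 7225 and 6619 in the HMEC-1 libraries. The CPM were 0.991 ± 0.170 and 168 ± 7.11 (SD, n = 5 each), a ratio of the summed counts of 169 after scaling by library size (exact 95% interval 146 to 196, counting error only). The fitted log2FC was -7.40 (SE 0.061), and 393 of the 16310 genes tested had a lower one. Counts of 30 or more were well above 3 in every EA.hy926 library, and in bulk RNA fewer expressing cells cannot be told apart from less RNA per cell.

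The RefSeq promoter window of MYH10 (GRCh38.p14, chr17:8630676-8630975, minus strand) is shown because the gene was so unequal between the lines. On the minus strand the GENCODE gene begins at 8631376, so the window lies inside the gene, near its 5′ end. The window runs 5′ to 3′ over 300 bases around the listed start, with each CG dinucleotide in capitals.
MYH10: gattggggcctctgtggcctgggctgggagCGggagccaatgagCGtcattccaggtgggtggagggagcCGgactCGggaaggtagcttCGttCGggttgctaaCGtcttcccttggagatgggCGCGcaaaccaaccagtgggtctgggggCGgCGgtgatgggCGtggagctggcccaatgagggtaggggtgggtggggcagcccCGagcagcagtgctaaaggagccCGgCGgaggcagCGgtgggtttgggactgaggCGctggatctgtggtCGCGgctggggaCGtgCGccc
The window held 21 CG dinucleotides, and 62.3% of 35114 promoter windows of this length held as many or fewer. The GC box GGGCGG occurred 1 time on either strand and was found in 45.0% of all windows, while the CArG box, the site known for binding serum response factor, was not in this window and was in 1.29% of all windows. The deposited counts carry no measurement on the promoter itself.

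MYH14 (ENSG00000105357, chr19:50188186-50310542, plus strand), the IIC heavy chain, was close to the limit of detection in both lines. It had 1 count over the EA.hy926 libraries, in replicate 2, and 3, 4, 13, 9 and 9 counts in the HMEC-1 libraries. The ratio of the summed counts was 34.2 in favour of HMEC-1, with an exact 95% interval of 5.78 to 1385 for counting error. An antisense gene covers 4.40% of its exonic bases, so counts this few are uncertain as to their source.

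Among the heavy chain transcripts, MYH9 took nearly the whole of the EA.hy926 pool, and MYH10 took a larger part of the HMEC-1 pool. With CPM divided by all annotated exonic bases, MYH10 was 0.0506% ± 0.00821 of the heavy chain sum in EA.hy926 and 5.87% ± 0.212 in HMEC-1 (SD, n = 5 each). Annotated exons of MYH10 add up to 32700 bases but its longest coding transcript to 8100, and with the latter as length the shares were 0.0904% and 10.0%. MYH9 made up the rest to within the MYH14 share, with 99.9% in EA.hy926 on either length and 94.1% or 90.0% in HMEC-1. The summed heavy chain level per kilobase of exons was 59.9 ± 2.72 CPM in EA.hy926 and 87.6 ± 4.06 in HMEC-1, and the ranges did not overlap.

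MYL6 (ENSG00000092841, chr12:56158346-56163496, plus strand), the essential light chain, stabilises the lever arm of the motor. EA.hy926 libraries held 10096 to 11936 counts of it, below the 17932 to 24856 of the HMEC-1 libraries. The CPM were 301 ± 27.5 and 511 ± 60.2 (SD, n = 5 each), with a log2FC of -0.76 (SE 0.063, adjusted p = 3.1e-10). Exons of the neighbouring genes MYL6B and SMARCC2 cover 18.3% of its exonic bases, and the strand setting of the counting was not given in the sources used here, which leaves the MYL6 value uncertain. MYL6B, the related essential light chain, was higher in EA.hy926, at 83.9 ± 2.04 CPM against 43.5 ± 1.64 (log2FC 0.95, SE 0.031, adjusted p = 2.6e-17). The same overlap leaves the MYL6B value uncertain too, and its extent over the exons of MYL6B was not computed.

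MYL9 (ENSG00000101335, chr20:36541497-36551447, plus strand), the regulatory light chain known for its abundance in smooth muscle and other contractile cells, showed the largest difference of the members. EA.hy926 replicates 1 to 5 held 6, 7, 4, 0 and 1 counts, and the HMEC-1 replicates held 3400, 4065, 4323, 3691 and 3632. The EA.hy926 libraries lay within a few counts of 0, and only replicates 1 to 3 had more than 3. The ratio of summed counts was 955 (exact 95% interval 604 to 1612, counting error only), and the CPM were 0.103 ± 0.089 and 95.2 ± 3.41. The fitted log2FC was -9.85 (SE 0.11), and 163 genes had a lower one. No annotated exon of another gene overlaps MYL9, and none of its 100-base stretches was found in another gene's transcripts. Its nearest tested protein-coding neighbours, taken in equal number on each side and 10 in all, lay between a log2FC of -0.66 and 1.13, with a median of 0.31.

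Some smooth muscle, fibroblast and pericyte markers moved with MYL9. Of 10 smooth muscle markers, 7 were tested, 5 were lower in EA.hy926 and 2 were higher at the adjusted p. Over all genes tested, 43.3% were lower and 42.6% higher, to be set beside every marker count here. The summed level of the smooth muscle markers was 75.0 to 88.9 CPM in EA.hy926, below 132 to 141 CPM for HMEC-1. SMTN made up most of both sums, at 72.4 CPM in EA.hy926 and 89.6 in HMEC-1 on average. TAGLN and CNN1 were lower in EA.hy926, ACTA2, the smooth muscle actin, was higher at 6.26 against 0.973 CPM, and the defining genes DES and MYOCD had at most 6 counts in any library. Of 10 fibroblast and pericyte markers, 6 of the 7 tested were lower in EA.hy926 and RGS5 was higher, with summed levels of 405 to 463 CPM against 544 to 576. RGS5 made up nearly all of the EA.hy926 sum, at 430 CPM against 5.05 in HMEC-1. The HMEC-1 sum was mainly COL1A1 and COL1A2, at 358 and 108 CPM, against 0.318 and 0.0393 in EA.hy926. COL1A1 was at 7 to 15 counts in EA.hy926 against 12634 to 16454, PDGFRB was at 27 to 39 and 830 to 1093, and LUM and DCN were at 0 in all libraries. Of 12 epithelial markers, 7 were tested, 4 were higher in EA.hy926 and 3 lower, and they summed to 1276 to 1389 CPM against 429 to 491. The keratins KRT7, KRT8 and KRT18 made up nearly all of both sums, with KRT7 at 622 against 314 CPM and KRT8 at 546 against 19.2. The 3 lower genes were KRT19, CLDN7 and CLDN4, with log2FC of -4.71, -4.54 and -1.42. CDH1, ESRP1, GRHL2 and ELF3 had at most 3 counts in every library of both lines. In EA.hy926 the markers COL1A2, COL3A1, THY1, CSPG4, LMOD1, CNN1, KRT19 and CLDN7 stood below 10 counts in most or all libraries. They passed the filter through HMEC-1 and so had to differ. The part of the marker genes in the differences of the members was not tested.

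MYL12A (ENSG00000101608, chr18:3247481-3256236) and MYL12B (ENSG00000118680, chr18:3261479-3278461) lie next to each other on the plus strand and encode the ubiquitous regulatory light chains. MYL12B, the more abundant, was at 511, 529, 521, 518 and 502 CPM in EA.hy926 and at 702, 747, 715, 696 and 689 CPM in HMEC-1. All EA.hy926 values lay below all HMEC-1 values, with a log2FC of -0.46 (SE 0.026, adjusted p = 3.1e-13). MYL12A was at 134 ± 10.5 CPM in EA.hy926 and 204 ± 12.7 in HMEC-1 (SD, n = 5 each), a log2FC of -0.61 (SE 0.046, adjusted p = 5.9e-11). Exons of the antisense gene MYL12-AS1 cover 5.77% of the exonic bases of MYL12A and 1.38% of those of MYL12B. With the strand setting not given, some of their counts are uncertain.

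MYL12B therefore stayed the leading regulatory light chain transcript in both lines, and MYL9 added a share in HMEC-1. Per kilobase of exons, MYL12B was 87.1% ± 0.890 of the regulatory light chain sum in EA.hy926 and 80.1% ± 0.547 in HMEC-1. MYL12A was 12.9% ± 0.883 and 13.2% ± 0.449, which overlap. MYL9 was 0.0106% ± 0.00906 in EA.hy926 and 6.65% ± 0.151 in HMEC-1. Per kilobase of the longest coding transcript, MYL12A was 24.3% and 25.2%, and MYL9 in HMEC-1 was 4.24%.

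**Figure D2:**
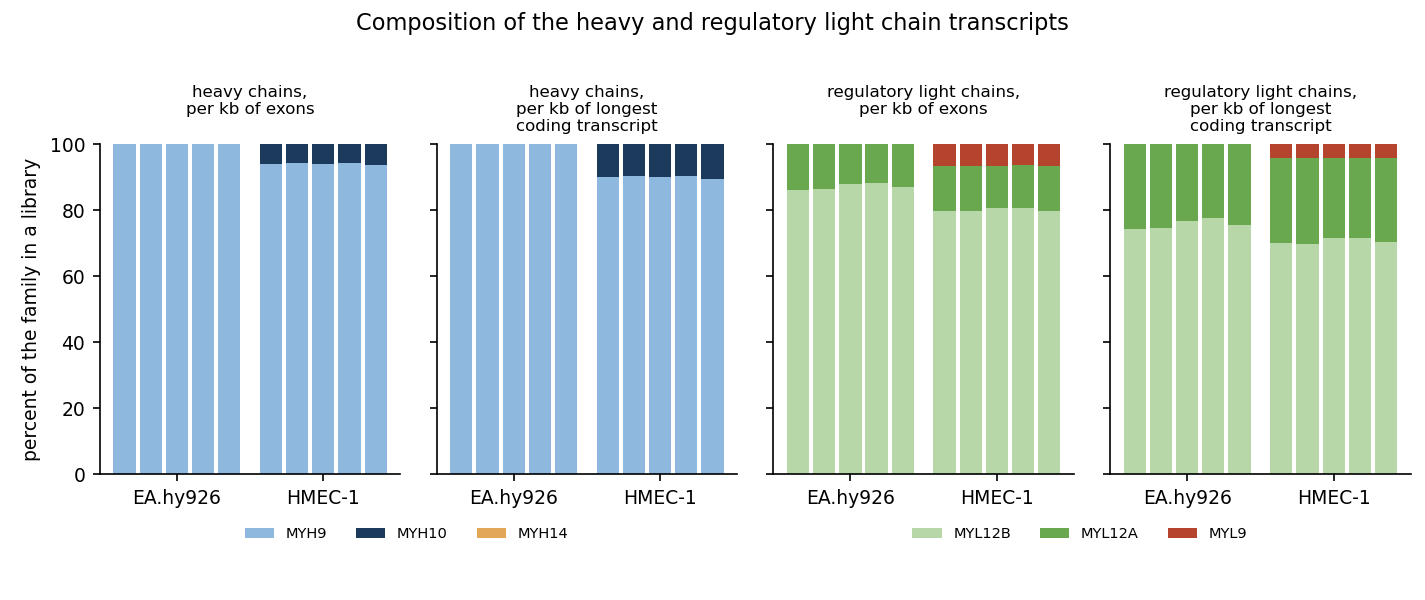
Share of each gene in the summed heavy chain (left panels) and regulatory light chain (right panels) level of each library, in percent, per kilobase of all exons or of the longest coding transcript, with 1 bar per library. MYH10 and MYL9 stand out in the HMEC-1 bars, at 5.87% or 10.0% and 6.65% or 4.24% on average.

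The sums kept a similar ratio to each other. Per kilobase of exons, regulatory light chains exceeded heavy chains 5.71 ± 0.385 times in EA.hy926 and 5.83 ± 0.377 times in HMEC-1 (SD, n = 5 each), and the ranges overlapped. Over the longest coding transcripts the ratios were 4.05 ± 0.292 and 3.90 ± 0.264, so the order of the lines turned with the length used. The essential light chain MYL6 stood at 0.200 ± 0.0148 of the regulatory light chains in EA.hy926 and 0.226 ± 0.0194 in HMEC-1 per kilobase of exons. These ranges overlapped too, and MYL6B, which was higher in EA.hy926, was not counted in the ratio.

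MYLK (ENSG00000065534, chr3:123610049-123884332, minus strand), the calmodulin-dependent kinase of the regulatory light chain, was the only member that was higher in EA.hy926. Its counts were 2427, 1932, 2139, 2409 and 2162 in EA.hy926 and 666, 788, 906, 813 and 863 in HMEC-1. The lowest EA.hy926 library had more than any HMEC-1 library, and the CPM were 61.2 ± 3.17 and 20.1 ± 1.43 (SD, n = 5 each). This was a log2FC of 1.61 (SE 0.046, adjusted p = 2.3e-18), or 3.04 times the HMEC-1 mean. Exons of genes on the other strand cover 3.09% of its exonic bases, and 1.54% of its 100-base stretches were shared with other genes, so some MYLK counts are uncertain.

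The MYLK locus gives rise to long and short kinases and, from a start within the gene, to telokin, a kinase-less protein of smooth muscle. The counts are per gene and do not separate them. The MYLK window listed in RefSeq (GRCh38.p14, chr3:123620499-123620798, minus strand) lies inside the gene. It is shown because it was the window given for the member that moved against the others. On the minus strand the gene begins at 123884332, so the window lies near its far end and not at the 5′ end of the gene. The counts do not show which product starts there. Capitals mark a CArG box at position -94 from this listed start.
MYLK: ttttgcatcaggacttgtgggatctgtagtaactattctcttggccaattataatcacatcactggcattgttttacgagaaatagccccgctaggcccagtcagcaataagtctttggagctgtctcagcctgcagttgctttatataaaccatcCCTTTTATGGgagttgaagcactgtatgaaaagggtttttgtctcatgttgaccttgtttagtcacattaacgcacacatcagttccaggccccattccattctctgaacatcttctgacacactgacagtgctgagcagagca
Of the other members listed, ROCK2 held a CArG box in 1 of its 2 windows and the rest held none. A match of letters is a description of the window and not a measurement of binding.

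ROCK1 (ENSG00000067900, chr18:20944612-21111813, minus strand) and ROCK2 (ENSG00000134318, chr2:11179759-11348330, minus strand), the kinases through which RhoA acts on myosin, had the smallest differences of the tested members. ROCK1 was at 157, 153, 156, 152 and 150 CPM in EA.hy926 and at 180, 176, 183, 181 and 185 CPM in HMEC-1. Although the groups were separated, the log2FC was only -0.24 (SE 0.024, adjusted p = 1.1e-08). ROCK2 was at 145 ± 6.16 and 179 ± 3.56 CPM (SD, n = 5 each), a log2FC of -0.30 (SE 0.029, adjusted p = 3.0e-09). The pseudogene ROCK1P1 shares 6.85% of the 100-base stretches of ROCK1, so some ROCK1 counts are uncertain. Per kilobase of exons, ROCK1 made up 48.0% ± 0.629 of the ROCK pair in EA.hy926 and 46.8% ± 0.670 in HMEC-1, and these ranges overlapped.

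**Figure D3:**
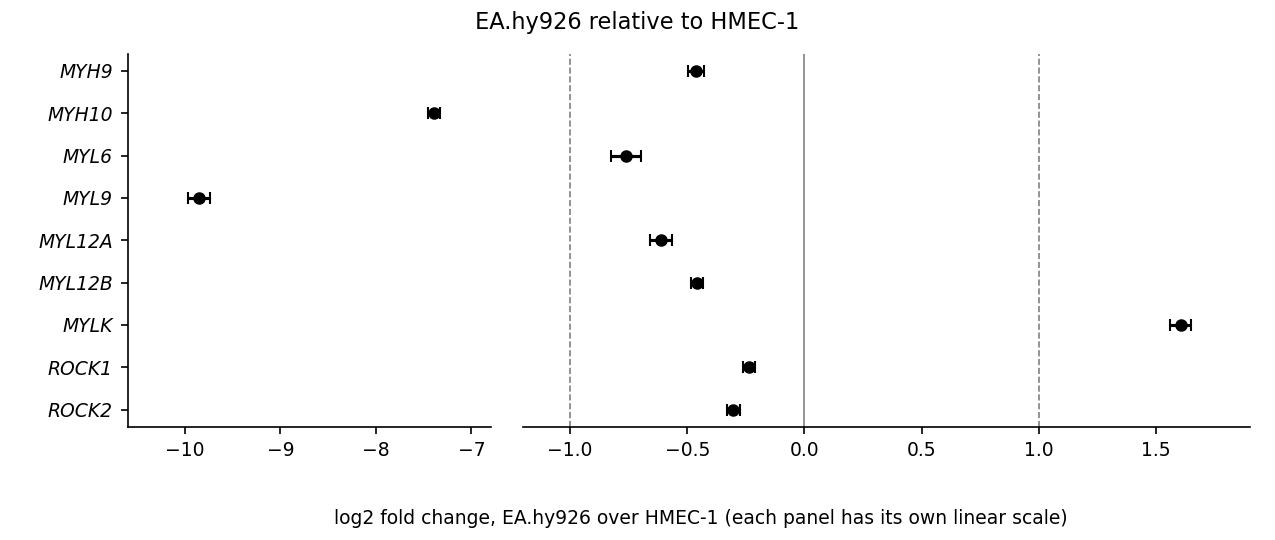
Log2FC of the 9 tested members, EA.hy926 over HMEC-1, as points with error bars of 1 SE; the left and right panels have different linear scales, and dashed lines mark -1 and 1. MYH10 (-7.40, described without a test) and MYL9 (-9.85) lie in the left panel, MYLK at 1.61, and the other genes between -0.76 and -0.24.

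Ordered by level per kilobase of the longest coding transcript, EA.hy926 had MYL12B at 413 CPM, MYL6 at 210, MYH9 at 135, MYL12A at 133, ROCK2 at 17.1, ROCK1 at 16.3, MYLK at 6.05, MYH10 at 0.122, MYL9 at 0.0369 and MYH14 below that. The ranges of MYH9 and MYL12A overlapped, as did those of ROCK2 and ROCK1. In HMEC-1 the order was MYL12B at 568 CPM, MYL6 at 356, MYL12A at 203, MYH9 at 186, MYL9 at 34.2, ROCK2 at 21.0, MYH10 at 20.8, ROCK1 at 19.1, MYLK at 1.99 and MYH14 at 0.0267. There the ranges of MYL12A and MYH9 overlapped, and so did those of ROCK2 and MYH10. Per kilobase of all exons, MYH9 stood above MYL12A in both lines, and MYH10 fell below ROCK1 in HMEC-1, at 5.14 against 13.5 CPM. In EA.hy926 the ranges of MYH10 and MYL9 overlapped on that length. MYLK and MYH10 exchanged places between the lines on either length.

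The members also varied within a line. Replicate 2 of EA.hy926 had the lowest MYH9 (938 CPM) and the highest MYL6 (338 CPM), MYL12A (145 CPM) and MYL12B (529 CPM) of that line. Replicate 2 of HMEC-1 had the highest MYL6 (609 CPM), MYL12A (224 CPM) and MYL12B (747 CPM). Replicate 4 of HMEC-1 had the highest MYH9 (1522 CPM) and the lowest MYL12A (192 CPM) of its line. In none of these genes did the spread bring the ranges of the lines to overlap.

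Other genes of the pathway were taken from lists of regulators and partners, which held 146 genes apart from the members. Of these, 121 were tested, 47 were higher and 66 lower by the adjusted p, against 42.6% and 43.3% of all genes tested. Past both thresholds, 18 were higher and 17 lower, against 19.1% and 16.4% of all genes, so large differences were no more frequent in the lists than elsewhere. The median log2FC over the 121 genes was -0.16, beside -0.01 over all genes tested. The counts in single lists are descriptions to be read against the same shares. MYH15, MYL4, DAPK1, PPP1R14A, LLGL2, CNN1, MYO7A and MYO18B stood below 10 counts in most or all libraries of 1 line, passed the filter through the other line and so had to differ.

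Of the muscle-type class II heavy chains, 4 of 11 were tested, 3 were higher in EA.hy926 and MYH11, the smooth muscle heavy chain, was lower. MYH15 was at 461 to 555 counts in EA.hy926 against 1 to 6 (fitted log2FC 7.49, SE 0.16). MYH3, the embryonic skeletal heavy chain, was at 2.70 against 0.385 CPM, and MYH7B and MYH11 were below 2 CPM in both lines. Among the remaining light chains, all 3 that were tested of 9 were higher, and the atrial and embryonic chain MYL4 was past both thresholds at 15 to 36 against 5 to 9 counts.

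Of the 12 other kinases that can phosphorylate the light chain, 11 were tested, 3 were higher and 6 lower in EA.hy926. DAPK1, a calmodulin-regulated kinase linked to cell death, was at 0 to 11 counts in EA.hy926 against 3040 to 4064, a ratio of summed counts of 1135 (exact 95% interval 676 to 2077, counting error only). CDC42BPG was lower (log2FC -2.23, SE 0.20) and STK17A was higher (log2FC 1.39, SE 0.035). CDC42BPA and MYLK4 did not pass the test, with log2FC of -0.05 and -0.51.

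Myosin phosphatase and its inhibitors gave 6 tested genes of 8, of which 2 were higher and 3 lower. PPP1R14A, the inhibitor CPI-17 known from smooth muscle, was at 3 to 7 counts in EA.hy926 against 376 to 497 (fitted log2FC -6.33, SE 0.17). The targeting subunit PPP1R12A was higher by a log2FC of 0.37 and the catalytic subunit PPP1CB was lower, at -0.38.

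Of 11 filament regulators and chaperones, 10 were tested, 5 in each direction. SHROOM3, which recruits ROCK kinases to apical junctions, was at 1884 to 2362 counts in EA.hy926 against 26 to 40 (log2FC 6.23, SE 0.075, adjusted p = 7.9e-25). SVIL, a myosin- and actin-binding protein, was higher (1.34), and ANLN, the contractile ring scaffold, was lower (-1.47). LLGL2 was at 2 to 5 against 173 to 254 counts. Of 10 further ROCK substrates, 3 were higher and 6 lower at the adjusted p, and 0 were past both thresholds, with EZR at a log2FC of -0.98 and MSN at 0.59.

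All 20 stress fibre partners were tested, 6 were higher and 13 lower in EA.hy926, and 1 and 5 were past both thresholds, where 19.1% and 16.4% of all genes were. TAGLN, an actin-bundling protein of smooth muscle, was at 1.91 ± 0.290 against 42.7 ± 2.53 CPM (log2FC -4.47, SE 0.073, adjusted p = 1.3e-22), and CNN1 was at 0 to 3 against 12 to 32 counts. TPM2, a tropomyosin, was higher at 115 ± 1.53 against 20.2 ± 0.689 CPM (log2FC 2.51, SE 0.030, adjusted p = 9.2e-25). SRF and the coactivators MRTFA and MRTFB, which drive many contractile genes, were lower, with log2FC of -0.92, -0.48 and -0.46, and MYOCD was too low to test.

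Of the unconventional myosins, 15 of 22 were tested, 7 were higher and 8 lower. MYO1D was at 120 ± 3.16 against 7.24 ± 0.273 CPM (log2FC 4.06, SE 0.036, adjusted p = 8.2e-27), and MYO7A was higher at 58 to 85 against 4 to 6 counts. MYO7B (log2FC -2.78) and MYO18B (-2.97) were lower, MYO18B at 0 to 4 counts in EA.hy926.

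**Figure D4:**
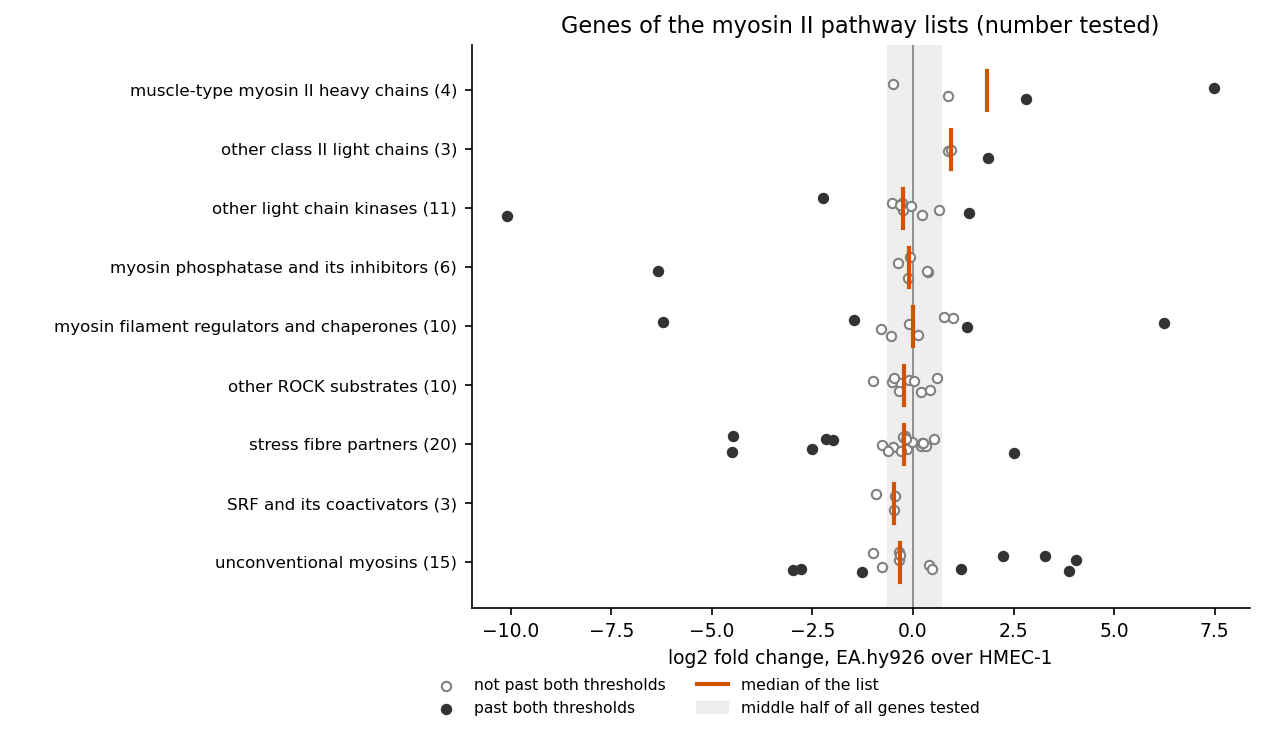
Log2FC of the tested genes in each list described, EA.hy926 over HMEC-1, with filled points past both thresholds, open points for the rest, an orange bar at the median of each list and the grey band from -0.62 to 0.70 that holds the middle part of all genes tested, between their quartiles. The list medians are 1.84 for the muscle-type heavy chains (4 tested) and 0.95 for the other light chains (3 tested). The rest lie between -0.48 (SRF and its coactivators, 3 tested) and 0.01, and single genes lie far out on both sides.

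The genes nearest to MYH10 in log2 CPM over the 10 libraries, by Euclidean distance, were GREM1 (1.25), EFEMP2 (1.99), FGD5 (2.21), ADAMTSL1 (2.67) and MYRF (2.76). GREM1 was at 47 to 57 counts in EA.hy926 against 5830 to 7481. The tested protein-coding genes next to MYH10 on the chromosome, leaving out NDEL1, whose exons overlap it, lay on both sides of 0. The nearest of them, taken in equal number on each side and 10 in all, ranged in log2FC from -2.82 to 2.82 with a median of 0.11. The lowest was NTN1, at 0.160 CPM in EA.hy926 against 1.15 in HMEC-1. The highest was MYH3, which starts at chr17:10628526, at 2.70 against 0.385 CPM.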

How the data were processed

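Libraries from both lines, 5 each, were grouped by the sample titles. The authors selected poly(A) RNA, sequenced it on a NovaSeq 6000 instrument, aligned reads to GRCh38 with HISAT2 and deposited raw counts per gene. The counting tool is HTSeq in the paper's methods and featureCounts in the submitters' processing notes, which also list fastp and DESeq2. Tool versions, annotation release and strand setting were not given in the sources used here.

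Of 60448 identifiers, 93.4% matched GENCODE 44, which gave symbols, coordinates and exon lengths. Genes were filtered with filterByExpr (minimum count 10, total 15), leaving 16310, scaled by TMM and tested with the quasi-likelihood functions of edgeR 4.0.16 in R 4.3.3, without covariates. P-values were adjusted by Benjamini-Hochberg over all genes tested, and the thresholds were an adjusted p of 0.05 and an absolute log2FC of 1. The SE is the absolute log2FC over the square root of F. CPM use TMM-scaled totals. Intervals of ratios are exact (Clopper-Pearson). The fits were tested on simulated data. Coding sequences were aligned with mafft 7.526, and promoters came from RefSeq (GRCh38.p14), which listed 9 of the 10 members, all but MYL9.

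Named genes were all members, up to 4 per list (the 2 highest and 2 lowest log2FC past both thresholds) and the 5 nearest to MYH10. Others named (MYL6B, MYH7B, MYH11, MYLK4, CDC42BPA, PPP1R12A, PPP1CB, EZR, MSN, SRF, its coactivators and the markers) were chosen after their values were seen. Results for some listed genes are not reported here, though the totals over all pathway lists count them. Members and lists were chosen with earlier results of these data known. Alternatives were DESeq2 1.42.0, limma-voom (limma 3.58.1), other scalings and filters, a replicate block, glmTreat, other gene lengths and each library left out.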

Additional observations from a re-analysis of the deposited data

Results flagged for a closer look

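Of 98 groups of 5 libraries examined, 11 had a library whose gap to its neighbour took more than 0.71 of the group's range, and chance gives about 1 in 20. MYH9 was at 1522 CPM in HMEC-1 replicate 4, beside 1365 to 1385 in the others, and at 938 CPM in EA.hy926 replicate 2, beside 1032 to 1052. MYLK was at 22.6 CPM in HMEC-1 replicate 5, beside 19.0 to 19.9. CDC42BPG was at 2.09 CPM in the same library, beside 1.71 to 1.82.

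The other flags rest on few counts. MYH14 had its 1 count (0.0301 CPM, 0.00526% of the heavy chains per kilobase of exons) in EA.hy926 replicate 2. DAPK1 was at 0.286 CPM (11 counts) in EA.hy926 replicate 4, beside 0 to 2 counts, so 1 library held most of its EA.hy926 counts. In the same library LLGL2 was at 0.130 CPM (5 counts, beside 2) and ARHGDIG at 0.0260 CPM (1 count, beside 0). HMEC-1 replicate 1 had the highest MYH3, at 0.599 CPM (21 counts, beside 12 to 15), and the lowest MYL4, at 0.143 CPM (5 counts, beside 8 to 9).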

How the results depend on the processing

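The log2FC of the 9 tested members kept its sign under all alternatives that gave one, while the order of the lines in the ratio of regulatory light to heavy chains turned with the length used, as given above. The genes past both thresholds numbered 5784, and 9312 without a filter on low counts. Requiring 10 counts in every library gave 3255 genes, 1 member in place of 2, since MYL9 was then not tested, and 23 pathway genes in place of 35, for which the construction removes genes near 0 in a line. Against a log2FC of 1 (glmTreat), 2 members passed, beside 8 at the adjusted p alone. Leaving out each library in turn gave 5945 to 6000 genes, 2 members and 36 to 39 pathway genes. The filter was applied anew each time, and the numbers of genes and pathway genes all lay above the 5784 and 35 of the full set. The loss of a library and the change of the filter cannot be told apart here. DESeq2, limma-voom and RLE factors changed no count of calls by over 1.5 times. Library totals without factors shifted the median log2FC by -0.13, took the share of calls that were lower in EA.hy926 from 46.2% to 52.3%, so that the balance over all genes turned, and took the ROCK substrates and SRF lists from 0 to 1.

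Shares moved with the length used. Over the longest coding transcript, and then without division by length, HMEC-1 had MYH9 at 90.0% and 89.3%, MYH10 at 10.0% and 10.7%, MYL9 at 4.24% and 9.43%, MYL12A at 25.2% and 20.2% and MYL12B at 70.5% and 70.3%. EA.hy926 had MYH9 at 99.9% both times, MYH10 at 0.0904% and 0.0971%, MYL12A at 24.3% and 20.5% and MYL12B at 75.7% and 79.5%.

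Same-numbered libraries of the lines did not deviate together (r -0.023 to 0.039), so the numbers were not taken as pairs. With the replicate number as a block, 5786 genes, 2 members and 35 pathway genes were past both thresholds. EA.hy926 libraries 3 and 4 correlated best with their own number, the others did not.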
